A study of Mus musculus with 10 samples.

Results

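OP9 stromal cells grown as reaggregates were compared with OP9 cells grown in flat culture, using as the flat group only the cultures whose label does not name the de Bruijn laboratory. The members were taken from the labels: reaggregates 1 to 6 and flat cultures 1 and 3, which are 8 of the 10 libraries of the series. The study asked which signals of the embryonic aorta-gonad-mesonephros region, the site where the first blood stem cells mature, let their precursors become stem cells. It profiled OP9 cells as a stromal environment that can be built in the dish, in the geometry used for such cultures and in ordinary flat culture. The comparison describes how the transcriptome of reaggregates differed from that of flat cells whose label does not name that laboratory.

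All 10 libraries came from OP9, a mouse stromal line labelled as from foetal calvaria of strain (C57BL/6xC3H)F2-op/op, whose op mutation removes functional M-CSF. The study's text gives newborn mice as the source of the calvaria. Reaggregates 1 to 6 were made from a trypsinised suspension that was pelleted and then kept for 48 h on 0.8 µm nitrocellulose filters between liquid and gas. Reaggregates 1, 3 and 5 had no IL-3 in the label, and reaggregates 2, 4 and 6 had IL-3, labelled as 200 µg/µl, which is high for a cytokine, so the unit may be a slip. Flat cultures 1 to 4 were maintained under medium without IL-3 in the label. Cells of flat cultures 2 and 4 are labelled as coming from the de Bruijn laboratory, and since the methods name 1 other laboratory, that of Medvinsky, flat cultures 1 and 3 were assigned to it by elimination. The labels do not say which stock the reaggregates were made from, so if it was another than that of flat cultures 1 and 3, differences of geometry and of stock cannot be told apart. Pelleting, the filter, the liquid-gas interface and the enzymatic dissociation before lysis went with the reaggregates only, so their contributions cannot be told apart.

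Stromal cells that are packed together touch other cells on all sides instead of a stiff plastic surface. Cells of this kind commonly leave the cell cycle at high density and build matrix around themselves. Matrix, secreted factors and cell-surface ligands are the means by which a stroma acts on blood precursors.

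Depth was read from the values by taking the commonest value above 0 in each library as 1 read. It lay at 7.35 to 9.43 M reads for the reaggregates (median 8.49 M), at 8.70 M for flat culture 1 and at 8.33 M for flat culture 3. A floor of 3 reads was 0.318 to 0.408 RPM in these libraries, which allows for counting error alone. An exact permutation test of 6 libraries against 2 has 28 splits, and its two-sided p, taken as the doubled one-sided p, cannot fall below 0.0714. Genes were therefore tested with limma, whose p-values measure only the spread between these samples, which may be technical.

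Reaggregated cells carried less RNA of mitosis, DNA replication and most genes of sterol synthesis, and more RNA for some matrix proteases, some collagens, some lysosomal enzymes and several signalling molecules. Of 16637 genes tested, 661 (3.97%) were higher in reaggregates and 1080 (6.49%) were lower, with calls made by limma at 2-fold or more and an adjusted p up to 0.05. An unadjusted p of at most 0.05 was found for 5797 genes. A lower value in a library can come from fewer cells of a type or from less RNA per cell, and these cannot be told apart here. The 6 reaggregates all lay above both flat cultures for 1891 genes (11.4%) and all lay below both for 3396 genes (20.4%). Of the called genes, 651 of the 661 and 1075 of the 1080 separated in this way. The median log2 fold change was 1.40 in the first set, −1.47 in the second and −0.05 over all genes tested. The balance of directions depended on scaling: 38.0% of calls were increases in the deposited RPM, 48.9% after quantile normalization (855 against 892) and 45.5% after median-ratio scaling (794 against 950). Consecutive reaggregates, which differ in IL-3, lay close together in many genes, so the 6 reaggregates may hold fewer than 6 independent values, and with these pairs averaged 208 genes were higher and 512 lower.

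The 2 flat cultures did not stand equally far from the reaggregates. Flat culture 3 was nearer than flat culture 1 to the reaggregate mean for 11780 of the genes tested (70.8%), for 605 of the 661 increased genes (91.5%) and for 759 of the 1080 decreased genes (70.3%). In the increased genes the median of flat culture 3 minus flat culture 1 was 0.85 on the log2 scale, and in the decreased genes it was −0.39. Without flat culture 3, 1525 genes were called higher and 1896 lower in reaggregates, and without flat culture 1 the counts were 198 and 563. Of the 661 increased genes, 617 were called against flat culture 1 alone, 189 against flat culture 3 alone and 175 against each of them. For the 1080 decreased genes these numbers were 939, 504 and 451. Lists of genes are therefore given with their counts against the flat cultures taken singly as well. There the lone culture is assumed to vary like the reaggregates. Such list counts are to be read beside those over all genes, which were also lower without flat culture 1. The sign of the list median was the same after quantile normalization and after median-ratio scaling for the 25 lists except the contractile one.

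**Figure D1:**
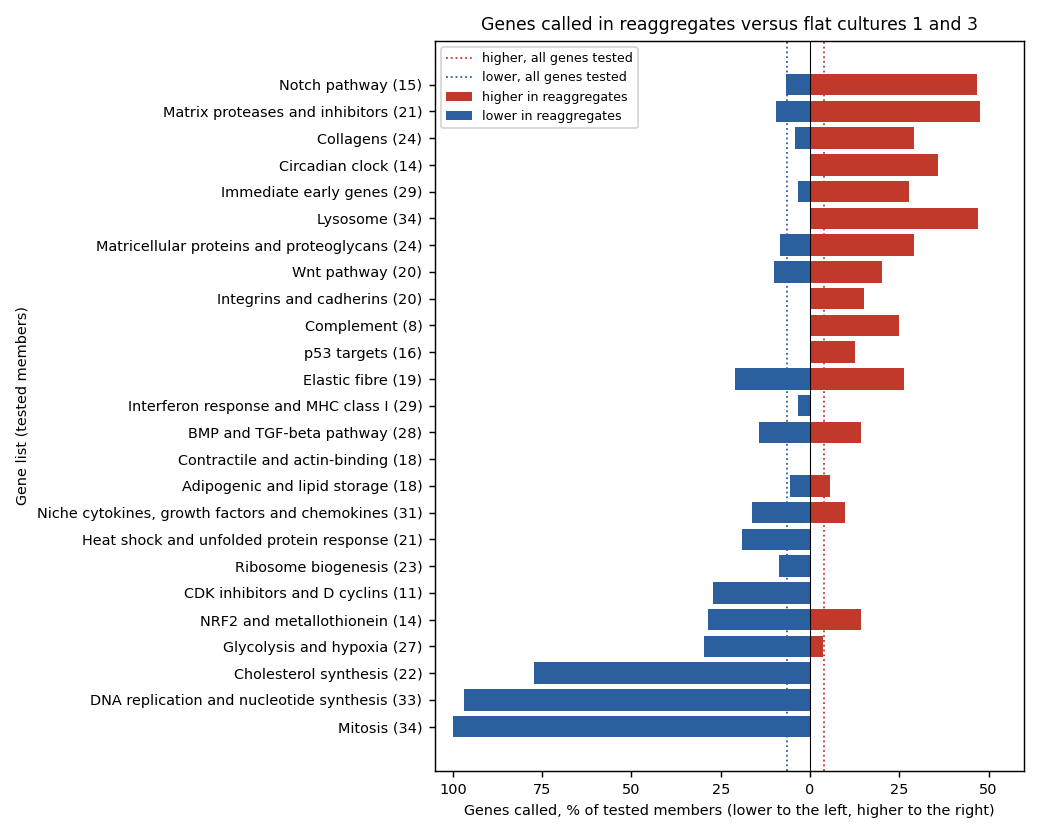
Percent of the tested members of 25 gene lists called higher (bars to the right) or lower (bars to the left) in 6 reaggregates than in flat cultures 1 and 3, with the same shares over all 16637 genes tested as dotted lines at 3.97% and 6.49%. The Mitosis list reaches 100% on the lower side and the lists of matrix proteases, lysosomal genes and Notch pathway genes reach furthest on the higher side.

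Mitotic genes fell in a body. The 34 members of the list encode the spindle, its checkpoint, the kinetochore and the kinases that drive cells into and out of division, and their RNA is made mainly in cells passing G2 and M. All 34 members listed were tested and all 34 were lower in reaggregates, with a median of −2.72 beside −0.05 over all genes tested. The same count of 34 was found in each of the 21 other settings run, including against flat culture 1 alone (median −2.87) and flat culture 3 alone (median −2.47). Aurka, encoding the Aurora A kinase of the spindle poles (chr2:172181690-172196035 of NCBIM37), was at 7.94 to 12.2 RPM in the reaggregates (median 9.12), 127 in flat culture 1 and 70.3 in flat culture 3. Reaggregates were low and flat cultures high, with a wide gap between the groups. Its log2 fold change was −3.23 (SE 0.250, adjusted p 0.000102 by limma, lower in 6 of 6 reaggregates). Ccnb1, the cyclin B1 partner of Cdk1, was at 7.30 to 19.1 RPM (median 13.2) against 151 and 89. Every reaggregate was below both flat cultures, and the log2 fold change was −3.17 (SE 0.342, adjusted p 0.000384 by limma). Birc5, encoding survivin of the chromosomal passenger complex, changed by −3.09. Top2a, which decatenates chromosomes and had the highest mean of the list, was at 64 to 97 RPM (median 76.2) against 489 and 412. The groups did not meet, and its log2 fold change was −2.53 (SE 0.165, adjusted p 5.57e-05 by limma). Mki67, the common marker of cycling cells, was at 34.9 to 44.3 RPM (median 39.3) against 181 and 328, again low in every reaggregate, with a log2 fold change of −2.62. Hmmr, a spindle-associated hyaluronan receptor outside the list, was among the 10 largest decreases at −3.22.

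Genes of DNA replication and nucleotide synthesis were lower as well. They license origins, unwind and copy DNA and supply deoxynucleotides, and most are induced at entry into S phase. All 33 members listed were tested, 0 were higher by limma (0 at an unadjusted p of at most 0.05) and 32 were lower, with a median of −1.77. The member without a call, Rfc5, had a log2 fold change of −0.91 (limma adjusted p 0.0197) and was called against flat culture 1 alone (−1.21). Against flat culture 1 alone 31 were lower and against flat culture 3 alone 28. Tk1, the thymidine kinase of S phase, was at 13.1 to 16.5 RPM in the reaggregates (median 14.8), 145 in flat culture 1 and 92.8 in flat culture 3. The reaggregates lay close together and far under both flat cultures, with a log2 fold change of −2.94 (SE 0.195, adjusted p 5.57e-05 by limma). Rrm2, the regulated subunit of ribonucleotide reductase, changed by −2.91, and its partner Rrm1 by −1.28. Ccne2, encoding cyclin E2, changed by −2.69, and the helicase subunit Mcm5 by −2.60.

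Of 13 CDK inhibitors, D cyclins and pocket proteins listed, 11 were tested, 0 were higher by limma (2 at an unadjusted p of at most 0.05) and 3 were lower, with a median of −0.57. These were Ccnd1, Rbl1 and Cdkn2d, and 3 members were lower against each flat culture taken singly. Ccnd1, the cyclin D1 that couples growth signals to G1, was at 180 to 276 RPM in the reaggregates (median 212), 880 in flat culture 1 and 1090 in flat culture 3. All 6 reaggregates lay well under both, with a log2 fold change of −2.17 (SE 0.178, adjusted p 0.000107 by limma). Rbl1, encoding p107, changed by −1.83 and Cdkn2d, encoding p19, by −1.78. Cdkn1a, encoding the CDK inhibitor p21, was at 616 to 1070 RPM (median 878) against 553 and 573. Every reaggregate was above both flat cultures, but the log2 fold change of 0.56 was under the threshold of fold change and its limma adjusted p was 0.123.

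The promoters of the mitotic list were read for the elements known in genes of this phase, and 3 promoters that hold both a CHR element and a CCAAT box are printed. Promoters are those of RefSeq on GRCm38.p6, from 250 bases before to 50 bases after the start, a build other than the NCBIM37 of the gene coordinates. The CHR element (TTTGAA or TTCGAA, on either strand) stood in 25 of 31 promoters of the 29 matched members (80.6%), beside 6316 of all 32851 promoters (19.2%). The CCAAT box (CCAAT, on either strand) stood in 25 of the 31 (80.6%), beside 12289 of all promoters (37.4%). It was also common in other lists, in 16 of 19 promoters of cholesterol synthesis (84.2%), 13 of 18 of the circadian clock (72.2%) and 15 of 22 of chaperones and the unfolded protein response (68.2%). The E2F-like site (TTTCCCGC, TTTGGCGC or TTTCGCGC) stood in 1 of the 31, beside 606 of all promoters (1.84%). A match describes the sequence and was not tested for function. For the list of DNA replication, 26 of 33 members had a promoter. The E2F-like site stood in 11 of their 31 promoters (35.5%), the CCAAT box in 18 (58.1%) and the CHR element in 6 (19.4%). Capitals below mark the CHR element and the CCAAT box in the promoters of Aurka (chr2:172370521-172370820, minus strand), Cdc20 (chr4:118437294-118437593, minus strand), which encodes the activator of the anaphase ligase, and Spc25 (chr2:69206164-69206463, minus strand), a kinetochore subunit.
Aurka: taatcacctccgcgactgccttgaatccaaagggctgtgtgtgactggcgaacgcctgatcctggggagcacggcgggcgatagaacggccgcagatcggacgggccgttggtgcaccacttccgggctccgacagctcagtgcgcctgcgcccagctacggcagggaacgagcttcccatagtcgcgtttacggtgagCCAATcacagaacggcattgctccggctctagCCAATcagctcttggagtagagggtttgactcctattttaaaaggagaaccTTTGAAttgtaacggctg
Cdc20: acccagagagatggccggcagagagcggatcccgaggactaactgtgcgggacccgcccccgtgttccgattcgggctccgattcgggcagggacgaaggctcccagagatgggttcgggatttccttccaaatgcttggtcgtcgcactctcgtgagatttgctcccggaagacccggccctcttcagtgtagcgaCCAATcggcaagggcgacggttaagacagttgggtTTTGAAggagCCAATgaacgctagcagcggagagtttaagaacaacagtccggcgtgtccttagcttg
Spc25: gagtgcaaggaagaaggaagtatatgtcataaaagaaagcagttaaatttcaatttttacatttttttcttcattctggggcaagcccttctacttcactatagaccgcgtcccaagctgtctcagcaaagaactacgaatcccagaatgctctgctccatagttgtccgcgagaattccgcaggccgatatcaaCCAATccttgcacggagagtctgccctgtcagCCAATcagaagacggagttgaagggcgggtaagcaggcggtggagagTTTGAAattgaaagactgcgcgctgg

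Most genes of cholesterol synthesis and uptake were lower in reaggregates. Their products carry acetyl-CoA through mevalonate to sterols, and the set is commonly driven together by SREBP2 when cells are short of sterol. Of 24 listed, 22 were tested, 0 were higher by limma (0 at an unadjusted p of at most 0.05) and 17 were lower, with a median of −1.36. The counts were 17 against flat culture 1 alone and 14 against flat culture 3 alone. Idi1, the isomerase that supplies the prenyl starter unit, was at 20.5 to 38.8 RPM in the reaggregates (median 30.4), 279 in flat culture 1 and 138 in flat culture 3. Reaggregates were low without overlap, with a log2 fold change of −2.73 (SE 0.306, adjusted p 0.000452 by limma). Fdps, which makes farnesyl diphosphate, changed by −2.17. Srebf2 itself, encoding SREBP2, was at 137 to 235 RPM (median 148) against 253 and 376, lower in 6 of 6 reaggregates, and its log2 fold change of −0.90 did not reach the fold change of 2. Insig1, a sterol-sensing partner of the pathway, had 0.29 (limma adjusted p 0.574).

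Glycolytic and hypoxia-regulated genes are induced by low oxygen and by growth signals. Of 29 listed, 27 were tested, 1 was higher and 8 were lower, with a median of −0.66. Against flat culture 1 alone 1 was higher and 8 were lower, and against flat culture 3 alone 0 were higher and 4 were lower. Ldha, which turns pyruvate into lactate, was at 400 to 432 RPM in the reaggregates (median 412.5), 1620 in flat culture 1 and 953 in flat culture 3. The 6 reaggregates formed a narrow band under both flat cultures, with a log2 fold change of −1.59 (SE 0.191, adjusted p 0.000654 by limma). Pgk1, a kinase of the same route, changed by −1.47 and the hypoxia-induced peptide gene Adm by −1.68. Pkm, the member with the highest mean, had −0.73 and no call. Pfkfb3, whose product stimulates phosphofructokinase, was the 1 gene higher, at 30.2 to 67.2 RPM (median 50.4) against 6.10 and 14.1. It lay above both flat cultures in every reaggregate, with a log2 fold change of 2.26 that was not called against flat culture 3 alone (1.69).

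Chaperone and unfolded protein response genes gave 0 higher by limma (2 at an unadjusted p of at most 0.05) and 4 lower of 21 listed and tested, with a median of −0.39, and 5 and 3 were lower against flat cultures 1 and 3 taken singly. The amino-acid response genes Chac1, Trib3 and Asns were the 3 with the lowest values. Asns, the asparagine synthetase, was at 48 to 58.5 RPM in the reaggregates (median 54.2), 258 in flat culture 1 and 162 in flat culture 3. It was low in every reaggregate, with a log2 fold change of −1.93 (SE 0.180, adjusted p 0.000181 by limma). Chac1, a glutathione-degrading enzyme, changed by −2.44 and the pseudokinase gene Trib3 by −2.23. Hspa5, the chaperone BiP of the endoplasmic reticulum, had −0.56 and no call. Ribosome biogenesis genes gave 0 higher by limma (0 at an unadjusted p of at most 0.05) and 2 lower of 23 listed and tested, with a median of −0.46, and 6 and 2 were lower against flat cultures 1 and 3 taken singly. In the comparison with both, the 2 lower genes were 8.70% of the list, near the 6.49% over all genes. They were Dkc1 (−1.24, not called with IL-3 reaggregates only) and Nop56 (−1.23), components of nucleolar small ribonucleoproteins. Ncl, encoding nucleolin, had −0.40 and no call.

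Some interstitial and basement-membrane collagens were higher in reaggregates. Type I, III and V collagens form the fibrils of connective tissue, and type IV collagens form the sheet beneath epithelia and vessels. Of 24 listed and tested, 7 were higher and 1 was lower, with a median of 0.92. Without flat culture 3 there were 15 higher and 1 lower (median 1.54), and without flat culture 1 there were 3 higher and 1 lower (median 0.30). Col11a1, a fibril-nucleating chain, was at 184 to 299 RPM in the reaggregates (median 256), 15.2 in flat culture 1 and 51.3 in flat culture 3. The reaggregates were high without overlap, with a log2 fold change of 3.09 (SE 0.382, adjusted p 0.000754 by limma). Col4a2, of the basement membrane, changed by 2.20. Col3a1 was at 1850 to 3200 RPM (median 2605) against 345 and 960, above both in every reaggregate, and its log2 fold change of 2.10 was not called against flat culture 3 alone (1.36). Col1a2, the most abundant of the list, was at 7610 to 11300 RPM (median 9950) against 3310 and 6340. The reaggregates were higher in 6 of 6, but the log2 fold change of 1.05 had a limma adjusted p of 0.0556. It was called against flat culture 1 alone (1.52), and also with a pseudocount of 0.1 RPM, with a filter of 1 RPM in 2 libraries and without the mean-variance trend. The exception was Col2a1, the cartilage collagen, at 200 to 286 RPM (median 274) against 777 and 1520. It was low in every reaggregate, with a log2 fold change of −2.12 (SE 0.256, adjusted p 0.000654 by limma).

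Elastic fibre genes went both ways. Elastin is laid down on fibrillin microfibrils and cross-linked by lysyl oxidases. Of 21 listed, 19 were tested, 5 were higher and 4 were lower, with a median of 0.24, which was −0.28 against flat culture 3 alone (1 higher, 3 lower) and 0.76 against flat culture 1 alone (6 higher, 3 lower). Eln, encoding elastin (chr5:135179651-135223111 of NCBIM37), was at 17.7 to 30.2 RPM in the reaggregates (median 23.6), 0.115 in flat culture 1, which is about 1 read, and 0.719 in flat culture 3. It was close to absent in flat culture and plainly present in all 6 reaggregates, with a log2 fold change of 4.79 (SE 0.315, adjusted p 5.57e-05 by limma). Loxl1, an oxidase of elastic tissue, changed by 1.76, which was not called against flat culture 3 alone (0.90). Its relatives Loxl2 and Loxl4 changed in the other direction, by −1.47 and −1.30, and Loxl2 was not called with consecutive reaggregates as a random block (−1.47) or with IL-3 reaggregates only (−1.38). Mfap5, a microfibril protein, was under 1 RPM in every reaggregate against 3.34 and 2.99, a log2 fold change of −1.91 that was not called against flat culture 3 alone (−1.84). Reaggregates 3 and 4 held about 1 read of Mfap5, so the size of its change depends on the pseudocount. Fbn1, the fibrillin gene and the most abundant of the list, had 0.25 with overlapping groups.

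Matricellular proteins and proteoglycans sit in the matrix without bearing load and tune adhesion and growth factor binding. Of 24 listed and tested, 7 were higher and 2 were lower, with a median of 0.67, and the counts were 11 and 1 against flat culture 1 alone and 3 and 2 against flat culture 3 alone, and 1 was lower when any of the 6 reaggregates was left out. Postn, encoding periostin, was at 322 to 964 RPM in the reaggregates (median 821), 9.90 in flat culture 1 and 71 in flat culture 3. Every reaggregate stood far above both flat cultures, with a log2 fold change of 4.55 (SE 0.683, adjusted p 0.00207 by limma). Lum, encoding the collagen-binding proteoglycan lumican, was at 4.49 to 30.2 RPM (median 7.78) against 0 and 0.359 RPM, about 3 reads. Its log2 fold change of 4.14 rested on the pseudocount (5.68 with 0.1 RPM and 3.38 with 1 RPM) and was not called against flat culture 3 alone (3.75). The related Dcn, decorin, changed by 3.22, also without a call against flat culture 3 alone (2.45). Has2, a hyaluronan synthase, was at 7.01 to 12.2 RPM (median 10.9) against 27.5 and 42.7, low in every reaggregate, with a log2 fold change of −1.75. Spp1, osteopontin, had −0.64 with overlapping groups. Fbln7, a fibulin that binds cells, was outside the lists and changed by 4.15.

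Matrix proteases and their inhibitors gave more increases than decreases. The gelatinase MMP2 can be activated at the cell surface by the membrane protease MMP14 together with TIMP2. Protease activity was not measured. Of 24 listed, 21 were tested, 10 were higher and 2 were lower, with a median of 1.02, and the counts were 12 and 2 against flat culture 1 alone and 6 and 1 against flat culture 3 alone. Mmp2 was at 2150 to 2390 RPM in the reaggregates (median 2300), 244 in flat culture 1 and 518 in flat culture 3. Mmp14 was at 1810 to 2050 RPM (median 2015) against 225 and 431. Timp2 was at 3730 to 3960 RPM (median 3835) against 1040 and 1510. For all 3 genes the reaggregates formed a narrow band high above both flat cultures. The log2 fold changes were 2.68 for Mmp2 (SE 0.255, adjusted p 0.000195 by limma), 2.66 for Mmp14 (SE 0.232, 0.000147) and 1.61 for Timp2 (SE 0.210, 0.000989), which was not called when reaggregates 1 and 3 were paired with flat cultures 1 and 3 by label number (1.61). The collagenase gene Mmp13 (chr9:7272514-7283333 of NCBIM37) was at 32.8 to 133 RPM (median 101) against 1.15 and 3.59. It was scarce in flat culture and abundant in every reaggregate, with a log2 fold change of 4.87 (SE 0.602, adjusted p 0.000755 by limma). Mmp9, the other gelatinase, changed by 2.93, which was not called against flat culture 3 alone (1.83). The urokinase gene Plau was lower (−1.29; −1.17 and not called with IL-3 reaggregates only), and Timp1, at 69.1 to 138 RPM (median 81.3) against 328 and 204, was lower by a log2 fold change of −1.47 that was not called against flat culture 3 alone (−1.13).

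Lysosomal genes encode the hydrolases, membrane proteins and channels of the degradative compartment, many of them under the transcription factor TFEB. Of 35 listed, 34 were tested, 16 were higher and 0 were lower by limma (0 at an unadjusted p of at most 0.05), with a median of 0.74. The median was 0.94 with 14 higher against flat culture 1 alone, and 0.75 with 8 higher against flat culture 3 alone. Naglu, a heparan sulphate hydrolase, was at 111 to 165 RPM in the reaggregates (median 131), 30.8 in flat culture 1 and 50.1 in flat culture 3. Hexa, the alpha subunit of hexosaminidase, was at 317 to 341 RPM (median 326) against 122 and 112. In both genes every reaggregate was high and the groups did not overlap. The log2 fold changes were 1.76 for Naglu (SE 0.222, adjusted p 0.000828 by limma) and 1.48 for Hexa. The cathepsin gene Ctsk changed by 1.57 (1.51 and not called with reaggregates without IL-3 only), the membrane protein gene Lamp2 by 1.14 and the channel gene Mcoln1 by 1.25. Lamp2 was not called against flat culture 1 alone (0.98), in the pairs by label number (1.11), with consecutive reaggregates averaged or with those without or with IL-3 only, and Mcoln1 was not called against flat culture 3 alone (0.84), without the filter, with reaggregates averaged or with those without or with IL-3 only. Neu1, a sialidase, changed by 1.57, and Psap, the saposin precursor with the highest mean, was at 2940 to 3180 RPM (median 3050) against 1080 and 1610 and changed by 1.21. Neither Neu1 (1.41) nor Psap (0.92) was called against flat culture 3 alone. Slc40a1, the iron exporter ferroportin, lay outside the list at 31.6 to 95.2 RPM (median 56.5) against 1.04 and 1.56. It was high in all 6 reaggregates, with a log2 fold change of 4.97 (SE 0.436, adjusted p 0.000147 by limma).

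Of the lysosomal members, 27 of 35 had a RefSeq promoter on GRCm38.p6, and of the sterol members 16 of 24. The E-box of lysosomal genes (TCACGTGA, which reads the same on both strands) stood in 4 of 32 lysosomal promoters (12.5%), beside 320 of all 32851 promoters (0.974%). In other lists it stood in 2 of 21 promoters of elastic fibre genes (9.52%) and 2 of 31 of DNA replication (6.45%). The sterol response element (TCACNCCAC, on either strand) stood in 1 of 19 sterol promoters (5.26%), beside 408 of all promoters (1.24%), so most members of both lists lacked these letters in the window. The sterol element also stood in 1 of 16 promoters of matricellular genes and 1 of 16 of matrix proteases (6.25% each). These 2 elements were added after the values had been seen. The promoters of Ctsa (chr2:164833523-164833822, plus strand) and Mcoln1 (chr8:3500269-3500568, plus strand) are printed as 2 examples that hold the E-box, in capitals, among genes called higher in reaggregates (1.34 and 1.25).
Ctsa: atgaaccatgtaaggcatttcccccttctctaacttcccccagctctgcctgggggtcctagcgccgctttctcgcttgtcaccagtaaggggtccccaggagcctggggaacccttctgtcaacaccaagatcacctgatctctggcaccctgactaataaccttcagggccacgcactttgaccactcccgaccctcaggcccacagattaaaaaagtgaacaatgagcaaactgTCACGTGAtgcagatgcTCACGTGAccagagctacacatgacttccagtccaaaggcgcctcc
Mcoln1: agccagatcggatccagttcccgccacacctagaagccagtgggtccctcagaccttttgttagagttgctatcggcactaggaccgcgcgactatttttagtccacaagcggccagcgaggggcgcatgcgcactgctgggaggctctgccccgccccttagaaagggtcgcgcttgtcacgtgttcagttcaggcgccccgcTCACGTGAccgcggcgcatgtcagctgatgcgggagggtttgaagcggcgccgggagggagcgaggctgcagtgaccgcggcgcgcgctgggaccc

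Counts of immediate early genes depended on the flat culture used, as did those over all genes (1525 higher of 16522 tested against flat culture 1 alone and 198 of 16498 against flat culture 3 alone). These genes encode transcription factors and phosphatases that respond within minutes to growth factors, stretch or handling. Of 31 listed, 29 were tested, 8 were higher and 1 was lower, with a median of 0.78. Against flat culture 1 alone 18 were higher and 0 were lower (median 1.67), and against flat culture 3 alone 5 were higher and 2 were lower (median −0.00), and 2 were lower without reaggregate 5 or 6. Nr4a3, an orphan nuclear receptor (chr4:48058025-48099319 of NCBIM37), was at 22.4 to 60.4 RPM in the reaggregates (median 26.9), 0 in flat culture 1 and 0.359 in flat culture 3, about 3 reads. It was present in every reaggregate and at the limit of detection in both flat cultures. Its log2 fold change was 5.57 (SE 0.375, adjusted p 6.05e-05 by limma), and it was 7.16 with a pseudocount of 0.1 RPM and 4.76 with 1 RPM. Its relative Nr4a1 was at 371 to 695 RPM (median 545) against 10.9 and 166. The groups did not overlap although the flat cultures lay far apart, and the log2 fold change was 3.59 (5.52 against flat culture 1 alone and 1.65 against flat culture 3 alone). It was not called with consecutive reaggregates averaged (3.59, adjusted p 0.089), without the filter on low values (adjusted p 0.0509) or with reaggregates without IL-3 (3.72) or with IL-3 (3.46) only. Gadd45b, a stress-response gene, was at 18.6 to 62 RPM (median 48.8) against 2.99 and 3.71 and changed by 3.35. Atf3, a stress-induced repressor, changed by 2.83 and was not called with consecutive reaggregates averaged (adjusted p 0.0814) or with reaggregates without IL-3 (2.85) or with IL-3 (2.81) only. Egr1, the growth-factor-induced zinc finger gene, was at 475 to 802 RPM (median 545) against 136 and 1030. The reaggregates lay between the flat cultures, so that no difference held against both, and the log2 fold change was 0.63 (limma adjusted p 0.471), although it was called against flat culture 1 alone (2.09). Fosl1 was lower (−1.35), which was not called against flat culture 1 alone (−0.96).

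The CRE core (TGACG, on either strand) stood in 19 of 31 promoters of the 25 matched immediate early members (61.3%), beside 6837 of all promoters (20.8%). It was also common in other lists, in 11 of 22 promoters of chaperones and the unfolded protein response (50%), 8 of 17 of contractile genes (47.1%) and 8 of 19 of cholesterol synthesis (42.1%). The AP-1 site (TGANTCA) stood in 0 of the 31, beside 2565 of all promoters (7.81%). It also stood in 0 promoters of several other lists, among them those of mitosis and DNA replication. Gadd45a, the DNA-damage and stress gene related to Gadd45b, was among the 10 largest increases at 173 to 416 RPM in the reaggregates (median 285), 14.3 in flat culture 1 and 15 in flat culture 3. Every reaggregate was high, and the flat cultures were low and nearly equal, with a log2 fold change of 4.18 (SE 0.344, adjusted p 0.00011 by limma).

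Notch pathway genes rose in part. Notch receptors are activated by ligands on touching cells and turn on Hes and Hey repressors through the DNA-binding protein RBPJ. Of 22 listed, 15 were tested, 7 were higher and 1 was lower, with a median of 1.03. Against flat culture 1 alone 12 were higher and 0 were lower, and against flat culture 3 alone 2 were higher and 1 was lower. Notch2 was at 131 to 216 RPM in the reaggregates (median 189), 40.1 in flat culture 1 and 72.7 in flat culture 3. The target gene Hes1 was at 30.7 to 58 RPM (median 45.7) against 16.9 and 12.9. Both were higher in every reaggregate than in either flat culture, with log2 fold changes of 1.71 for Notch2 (SE 0.256, adjusted p 0.00203 by limma) and 1.53 for Hes1 (SE 0.252, adjusted p 0.00343 by limma). The ligand gene Jag1 changed by 1.16, which was not called against flat culture 3 alone (0.54), without the filter, with consecutive reaggregates averaged or with those without or with IL-3 only. Rbpj was the 1 member lower, at 120 to 145 RPM (median 134) against 253 and 330, with a log2 fold change of −1.12 that was not called against flat culture 1 alone (−0.93). Notch3, the most abundant member, had 0.48 with overlapping groups and was called against flat culture 1 alone (1.11).

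In the BMP and TGF-β pathway the modulator gene Bmper was higher and the ligand gene Bmp4 was lower. BMPER binds BMPs outside the cell and can restrain or assist their signalling, and ID genes are transcribed in response to it. Of 35 listed, 28 were tested, 4 were higher and 4 were lower, with a median of 0.10, which was −0.05 with 1 higher and 2 lower against flat culture 3 alone and 0.29 with 9 higher and 4 lower against flat culture 1 alone. Without reaggregate 1 or 2 there were 2 higher and 3 lower. Bmper (chr9:23027520-23289646 of NCBIM37) was at 48.8 to 90.3 RPM in the reaggregates (median 74.7), 14.7 in flat culture 1 and 16.5 in flat culture 3. It was high in all 6 reaggregates and low and nearly equal in the flat cultures. Its log2 fold change was 2.13 (SE 0.254, adjusted p 0.000624 by limma), with 2.21 against flat culture 1 alone and 2.05 against flat culture 3 alone. Bmp4 was at 17.2 to 29.1 RPM (median 25.2) against 83.8 and 121. It was low in every reaggregate, with a log2 fold change of −2.03 (SE 0.221, adjusted p 0.000393 by limma). The BMP target gene Id1 changed by −1.50 and Id2 by −1.31, while Id3 had −0.45 and no call. Id2 was not called in 8 of 21 other settings, among them against flat culture 3 alone (−0.97) and without reaggregate 1 (−1.34) or 2 (−1.31). Tgfb3 changed by 1.53, not called against flat culture 3 alone (1.0), and Inhba, encoding an activin subunit, by −1.45, likewise (−1.53). Neither was called with consecutive reaggregates averaged or with those without or with IL-3 only. Tgfb3 was also not called without the filter, and Inhba with consecutive reaggregates as a random block or in the pairs by label number. Fstl1, the most abundant member, had 0.28 and no call.

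**Figure D2:**
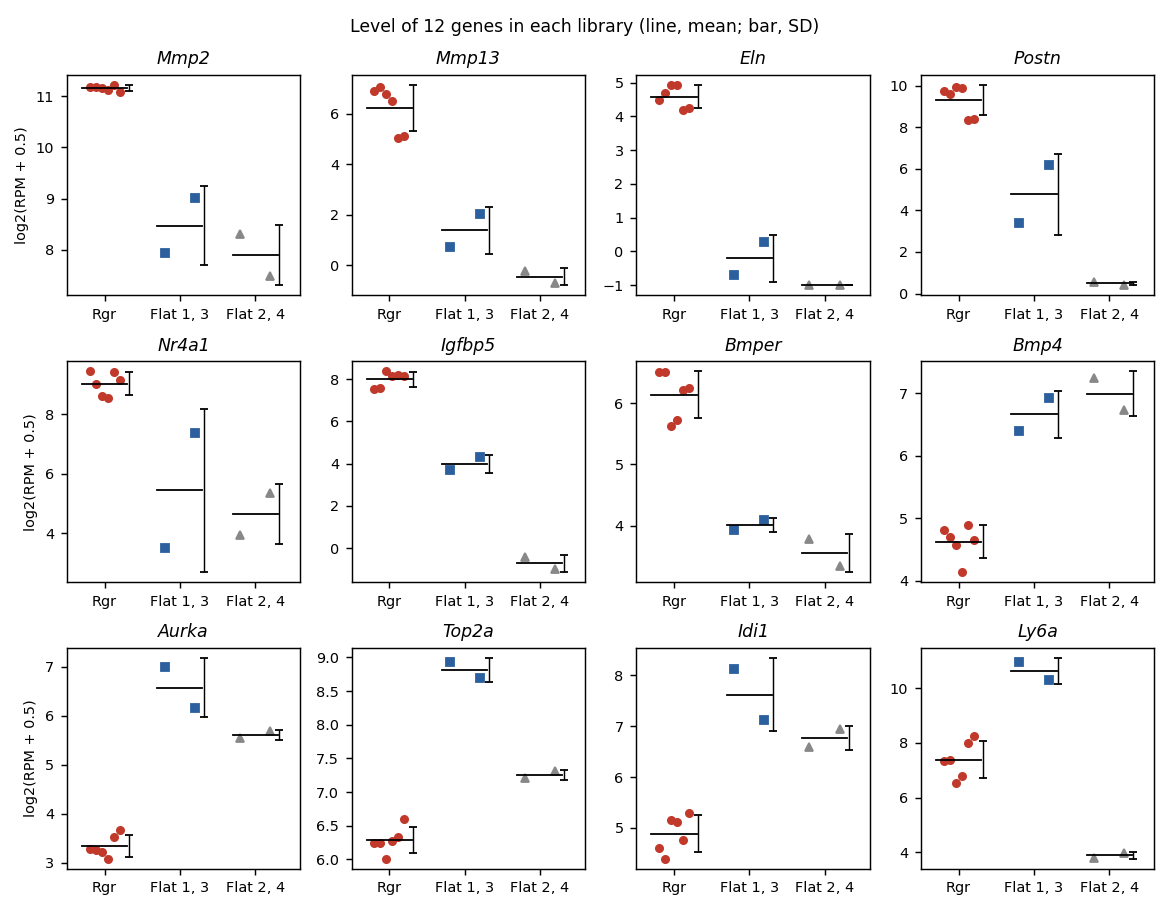
Level of 12 genes in each library as log2(RPM + 0.5), with a dot per library, a line at the group mean and a bar for the SD, for 6 reaggregates, flat cultures 1 and 3, and flat cultures 2 and 4 from the de Bruijn laboratory. Bmper separates the reaggregates (48.8 to 90.3 RPM) from all 4 flat cultures (9.60 to 16.5 RPM), and Ly6a separates flat cultures 1 and 3 (2000 and 1260 RPM) from flat cultures 2 and 4 (13.4 and 15.3 RPM).

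Wnt pathway genes gave 4 higher and 2 lower of 20 tested of 33 listed, with a median of 0.54, and 7 and 2 against flat culture 1 alone and 1 and 1 against flat culture 3 alone. Without 1 of reaggregates 1 to 4 there were 2 higher. Wnt9a, a ligand, was at 2.94 to 5.26 RPM in the reaggregates (median 3.87), 0.460 in flat culture 1 and 1.08 in flat culture 3. It was higher in every reaggregate, with a log2 fold change of 1.88 (SE 0.290, adjusted p 0.00238 by limma) that was not called with IL-3 reaggregates only (1.83). Wnt5b changed by 1.35, which was not called against flat culture 3 alone (0.80) or without the filter. It was also not called with consecutive reaggregates averaged or as a random block, or with those without or with IL-3 only. The ligand gene Wnt4 was at 17.8 to 30.4 RPM (median 26.8) against 69.3 and 89.3, low in all 6 reaggregates, with a log2 fold change of −1.62. Sfrp1, a secreted antagonist, changed by −2.46 and was not called against flat culture 3 alone (−2.68). Dkk3, the most abundant member, had 0.66 and no call.

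KIT ligand and CXCL12 hold and nourish blood stem cells, and IGF-binding proteins set the amount of free IGF. Of 36 listed niche cytokines, growth factors and chemokines, 31 were tested, 3 were higher (9.68%, beside 3.97% over all genes) and 5 were lower (16.1%, beside 6.49%), 23 were not called, and the median was −0.13, which was 0.19 (5 and 3) against flat culture 1 alone and −0.69 (2 and 6) against flat culture 3 alone. Igfbp5 (chr1:72904506-72921458 of NCBIM37) was at 183 to 329 RPM in the reaggregates (median 284), 12.5 in flat culture 1 and 19.2 in flat culture 3. High values were found in every reaggregate, with a log2 fold change of 3.99 (SE 0.260, adjusted p 5.57e-05 by limma), and Igf1 changed by 2.10. Kitl was at 104 to 156 RPM (median 120) against 238 and 356. It was low in all 6 reaggregates, with a log2 fold change of −1.25 (SE 0.209, adjusted p 0.00373 by limma) that was not called against flat culture 1 alone (−0.96) or with reaggregates without IL-3 only (−1.28). The inflammatory factor genes Cxcl1 and Il6 changed by −2.12 and −1.79, and Il6 was not called with consecutive reaggregates as a random block (−1.79). Ccl2, a monocyte attractant, changed by −2.95 and the adhesion receptor gene Vcam1 by 1.39, and neither was called against flat culture 3 alone (−2.82 and 1.02). Cxcl12 was at 546 to 2300 RPM (median 893.5) against 125 and 662. The groups overlapped, since 2 reaggregates lay under flat culture 3, and the log2 fold change of 1.85 had a limma adjusted p of 0.0964, with a call against flat culture 1 alone (3.05) and in the pairs by label number (2.29).

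The study names Runx1, a transcription factor of blood stem cell emergence, and the surface proteins encoded by Mme (neprilysin) and Mcam (CD146) beside Bmper. Runx1 was at 75.8 to 120 RPM in the reaggregates (median 94.7), 24.1 in flat culture 1 and 55 in flat culture 3. Mme was at 842 to 1350 RPM (median 1075) against 155 and 298. Mcam was at 1.59 to 7.43 RPM (median 5.08) against 1.96 and 9.10. The first 2 genes were higher in every reaggregate, and Mcam overlapped. Runx1 had a log2 fold change of 1.38 (SE 0.286, adjusted p 0.0108 by limma), which was 0.79 and not called against flat culture 3 alone. Mme had 2.30 (SE 0.274, adjusted p 0.000621 by limma). Mcam had −0.09 (SE 0.641, adjusted p 0.932 by limma).

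Among the marker lists, the stromal one had the highest sums. Summed over 10 stromal markers the level was 14658 to 22022 RPM in the reaggregates (median 19043), 5703 in flat culture 1 and 11952 in flat culture 3. Col1a2 was the most abundant, followed by Col1a1 at 5400 to 7190 RPM in the reaggregates. Thy1 and Nt5e reached at most 0.359 and 0.257 RPM in the 8 libraries, and Eng was at 1.28 to 4.03 RPM in the reaggregates. Of the 8 stromal markers tested 4 were higher and 0 were lower by limma (0 at an unadjusted p of at most 0.05), with a median of 1.26, and 6 and 2 were higher against flat cultures 1 and 3 taken singly. The platelet-derived growth factor receptor genes Pdgfrb and Pdgfra changed by 2.02 and 1.59. Osteoblast markers summed to 73.3 to 119 RPM against 39.0 and 80.7, most from Runx2, and gave 1 higher and 0 lower by limma (1 at an unadjusted p of at most 0.05) of 5 tested (median −0.36), and 2 and 1 were higher against flat cultures 1 and 3 taken singly. That 1 gene was Dmp1, a bone matrix protein, with a log2 fold change of 3.19. Limma called 0 genes in the other 5 marker lists with both flat cultures, and 1 blood marker was lower against flat culture 1 alone. Krt14 was called lower with a pseudocount of 0.1 RPM (−2.02), and Lyz2 in the pairs by label number (−1.58). Of 3 adipocyte markers tested (median −0.34) 1 had an unadjusted p of at most 0.05, of 5 smooth muscle and pericyte markers 0 (median −0.37), of 1 endothelial marker 0 (Pecam1, 0.10), of 5 blood markers 2 (median −0.63) and of 1 epithelial marker 1 (Krt14, −0.80). Blood markers summed to 8.27 to 27.6 RPM against 52.9 and 30.9, nearly all from Lyz2, and Ptprc, Cd3e and Adgre1 were at 0 in all 8 libraries. Adipocyte markers summed to 61.0 to 92.3 RPM against 80.7 and 106, smooth muscle and pericyte markers to 69.1 to 454 against 173 and 355, endothelial markers to 0.106 to 1.64 against 0.116 and 0.842 and epithelial markers to 0 to 0.272 against 0.659 and 0.927.

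Contractile and actin-binding genes, which build stress fibres on stiff surfaces, gave 0 calls by limma in either direction among 18 tested of 19 listed, with 1 higher and 2 lower at an unadjusted p of at most 0.05. Against flat culture 1 alone 1 was higher and 1 was lower. The median was 0.00 in the deposited RPM, −0.04 after quantile normalization and 0.06 after median-ratio scaling. Acta2, smooth muscle actin, was at 63.8 to 404 RPM in the reaggregates (median 190.0), 152 in flat culture 1 and 310 in flat culture 3. The groups overlapped widely, and the log2 fold change was −0.34 (SE 0.700, adjusted p 0.76 by limma). Flna, encoding filamin A, had 0.09. Integrins and cadherins gave 3 higher and 0 lower by limma (2 at an unadjusted p of at most 0.05) of 20 tested of 25 listed (median 0.52), with 5 higher against flat culture 1 alone and 1 against flat culture 3 alone. Cdh11, the cadherin of mesenchymal cells, was at 575 to 899 RPM (median 672) against 145 and 307. It was high in every reaggregate, with a log2 fold change of 1.74 (SE 0.287, adjusted p 0.00351 by limma). Itga8 and Itgb5 changed by 2.11 and 1.25, without a call against flat culture 3 alone (1.63 and 0.87), and Itgb1, the common β1 chain, had 0.10.

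Circadian clock genes gave 5 higher and 0 lower by limma (0 at an unadjusted p of at most 0.05) of 14 tested of 15 listed, with a median of 0.92, and 7 and 2 were higher against flat cultures 1 and 3 taken singly. Bhlhe40, a repressor of clock output that also answers to low oxygen and growth factors, was at 210 to 396 RPM in the reaggregates (median 264), 56.8 in flat culture 1 and 77.4 in flat culture 3. High values were found in all 6 reaggregates, with a log2 fold change of 2.11 (SE 0.250, adjusted p 0.000613 by limma). Per1 changed by 1.79, which was not called against flat culture 3 alone (0.82). NRF2 target and metallothionein genes gave 2 higher and 4 lower of 14 listed and tested (median −0.59), 3 and 4 against flat culture 1 alone, 2 and 2 against flat culture 3 alone, and 1 and 4 without reaggregate 3 or 4. The metal-binding gene Mt1 changed by 1.39 and the cystine transporter gene Slc7a11 by −1.94. Nqo1, a quinone reductase, changed by −1.91 and Gclm, of glutathione synthesis, by −1.11, neither called against flat culture 3 alone (−1.04 and −0.80). Of 16 p53 target genes tested of 18 listed, 2 were higher and 0 were lower by limma (2 at an unadjusted p of at most 0.05; median 0.27), with 4 and 0 higher against flat cultures 1 and 3 taken singly. These were Fas, the death receptor, at 1.96 and Zmat3, an RNA-binding protein, at 1.02, neither called against flat culture 3 alone (1.93 and 0.53).

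Interferon response and MHC class I genes gave 0 higher (1 at an unadjusted p of at most 0.05) and 1 lower by limma of 29 listed and tested, with a median of 0.12. Against flat culture 1 alone 1 was higher and 1 was lower, and the lower one was lost without flat culture 1 and without reaggregate 5 or 6 (0 lower in each). With both flat cultures the lower gene was Psmb9 (−1.01), which is 3.45% of the list, beside 6.49% over all genes. It was also not called with consecutive reaggregates averaged or as a random block, or after quantile normalization or median-ratio scaling. B2m, the light chain of class I molecules, was at 834 to 1030 RPM in the reaggregates (median 934) against 501 and 542, higher in every reaggregate with a log2 fold change of 0.84 that did not reach the fold change of 2. Complement genes gave 2 higher and 0 lower by limma (0 at an unadjusted p of at most 0.05) of 8 tested of 15 listed (median 0.46), with 4 and 0 higher against flat cultures 1 and 3 taken singly, namely C3 at 1.90 and C1s at 1.29, of which neither was called against flat culture 3 alone (0.90 and 0.70). C2 and Cfb had identical values in every library. Adipogenic and lipid storage genes gave 1 higher and 1 lower of 18 tested of 20 listed (median −0.09), 2 and 1 against flat culture 1 alone and 1 and 1 against flat culture 3 alone, and 2 were higher without reaggregate 5 or 6. With both flat cultures the calls were 5.56% in each direction, near the 3.97% higher and 6.49% lower over all genes. Zfp423, a factor of preadipocytes, was at 69 to 108 RPM (median 95.3) against 12 and 26.4, high in every reaggregate, with a log2 fold change of 2.30. Klf15 was at or under 1 read in every reaggregate against 0.921 and 0.838 RPM and changed by −1.42. This rested on the pseudocount (−0.89 and not called with 1 RPM), and it was not called with consecutive reaggregates as a random block or with IL-3 reaggregates only (−1.37). Pparg, the master factor of fat cells, was at 36 to 46.7 RPM (median 43.0) against 49.4 and 58.1, with a log2 fold change of −0.34 and no call, and the fatty acid desaturase gene Scd2 had 0.03.

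**Figure D3:**
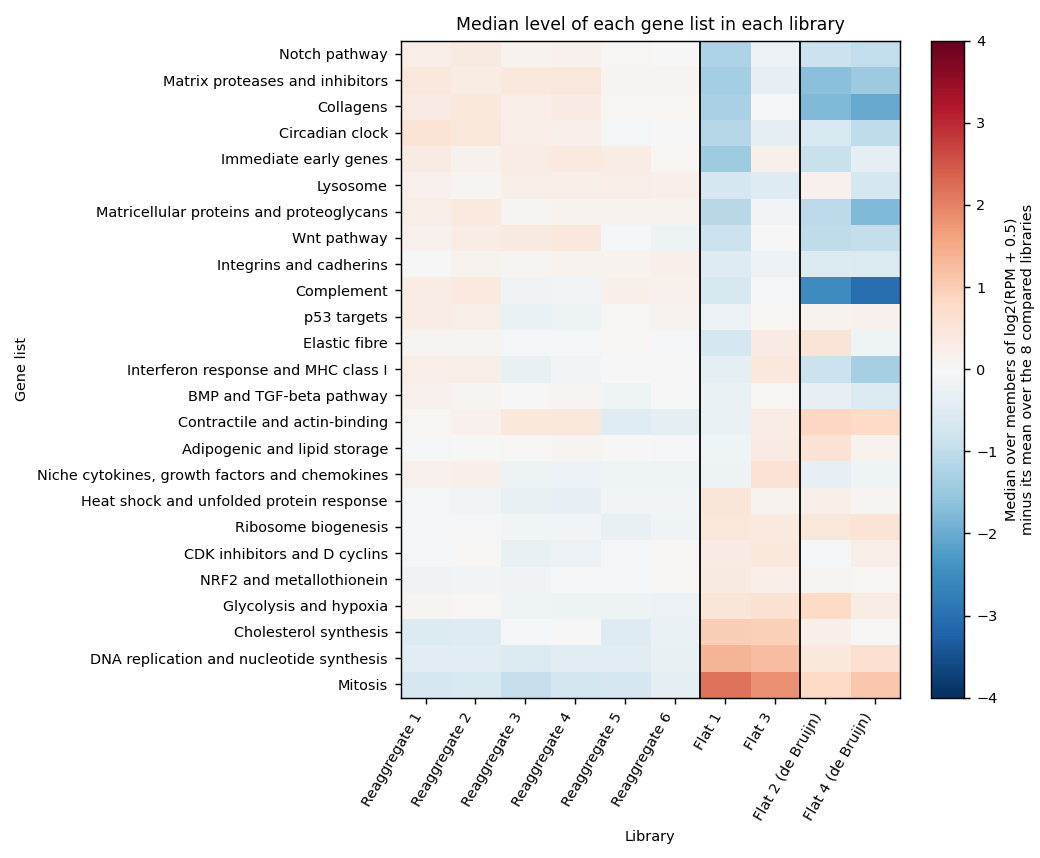
Heat map of 25 gene lists in 10 libraries, giving for each list the median over its members of log2(RPM + 0.5) minus the mean of the 8 compared libraries. For the Mitosis list the reaggregates lie between −0.91 and −0.37, flat cultures 1 and 3 at 2.18 and 1.84 and flat cultures 2 and 4 at 0.80 and 1.08.

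Other genes with large changes lay outside the lists. D0H4S114 was at 73.9 to 158 RPM in the reaggregates (median 95.7), 2.53 in flat culture 1 and 4.19 in flat culture 3. It was high in all 6 reaggregates, with a log2 fold change of 4.83 (SE 0.302, adjusted p 5.38e-05 by limma), and the unnamed gene AC102618.2 changed by 4.19. Ly6a, encoding the stem cell antigen Sca-1, was at 92.9 to 309 RPM (median 164) against 2000 and 1260. It was low in every reaggregate, with a log2 fold change of −3.24 (SE 0.430, adjusted p 0.00108 by limma). Slpi, a secreted protease inhibitor, was at 14.5 to 27.9 RPM (median 18.2) against 271 and 226 and changed by −3.62. Nlrp2, an inflammasome protein gene, changed by −3.86 and Serpinb9b, a granzyme inhibitor gene, by −3.30. Nlrp2 was at 0.256 to 0.976 RPM in the reaggregates, so the size of its change depends on the pseudocount. Ccl9, a chemokine gene, was at 15.6 to 84.3 RPM (median 39.5) against 851 and 354. It was low in all 6 reaggregates, with a log2 fold change of −3.94 that was not called against flat culture 3 alone (−3.31). H19, an imprinted non-coding RNA, was at 0 to 0.806 RPM (median 0.118) against 2.30 and 13.2 and changed by −3.13 (−3.06 and not called with IL-3 reaggregates only). The size of this change depends on the pseudocount, since the reaggregate median is about 1 read. Psph, of serine synthesis, changed by −1.95 and was not called against flat culture 3 alone (−1.10).

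Some calls were lost when a single library was left out. Ltbp4, a latent TGF-β binding protein gene (log2 fold change 1.64), Lrp5, a Wnt co-receptor gene (1.25), and Cry2, a clock repressor gene (1.72), were not called without flat culture 1 (0.79, 0.50 and 1.11) or without any of reaggregates 1 to 4 (1.53 to 1.67, 1.2 to 1.22 and 1.60 to 1.71). The same held for Kif26b (2.71), Plxnb1 (2.21), Dusp27 (1.40), Slurp1 (−3.06) and AL591145.1 (−1.58). Their values without flat culture 1 were 1.33, 0.91, 0.84, −1.53 and −0.71, and without 1 of reaggregates 1 to 4 they lay at 2.52 to 2.70, 2.09 to 2.19, 1.25 to 1.49, −3.14 to −2.78 and −1.63 to −1.45. The procollagen protease gene Bmp1 (1.87) was not called without flat culture 1 (1.06) or reaggregate 1, 2 or 4 (1.82, 1.79 and 1.80). The Notch ligand gene Dll1 (1.77) was not called without flat culture 1 (1.38) or reaggregate 1 or 4 (1.74 and 1.68). Cyr61, a matricellular protein gene (−1.11), was not called without flat culture 3 (−0.29) or any of the 6 reaggregates (−1.15 to −1.09). The immunoproteasome gene Psmb9 (−1.01) was not called without flat culture 1 (−0.90) or reaggregate 5 or 6 (−0.98 and −0.99), and Sqstm1, an autophagy receptor gene (1.0), without reaggregate 3 or 4 (0.99 and 0.97). The water channel gene Aqp5 (−3.31) and Pcolce2 (−3.17), a procollagen protease enhancer gene, were called against neither flat culture taken singly (−4.09 and −2.53, and −3.39 and −2.96), nor without any of reaggregates 1 to 4 (−3.42 to −2.88) and 1 to 3 (−3.33 to −2.93). Both were also not called with a pseudocount of 0.1 RPM, without the filter or with consecutive reaggregates averaged. After quantile normalization Aqp5, Cyr61, Psmb9, Slurp1 and AL591145.1 were not called. After median-ratio scaling this held for Aqp5, Psmb9 and AL591145.1, and without the mean-variance trend for Aqp5 and Cyr61.

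Calls also depended on how consecutive reaggregates were counted. With each pair averaged, 208 genes were higher and 512 lower, beside 661 and 1080. The 34 mitotic genes were lower as before, DNA replication gave 27 lower and cholesterol synthesis 13. Collagens gave 3 higher and 1 lower, elastic fibre genes 1 and 3, matricellular genes 4 and 1, matrix proteases 7 and 1, Notch pathway genes 2 and 1 and immediate early genes 4 and 1. Lysosomal genes gave 8 higher, circadian genes 1, integrins and cadherins 1, p53 targets 1 and stromal markers 2. The BMP and TGF-β list gave 1 higher and 2 lower, the Wnt list 1 and 2, the niche list 2 and 4, NRF2 targets 1 and 2 and glycolytic genes 1 and 4, and chaperones gave 3 lower. The complement and interferon lists lost their calls. Of the 147 named genes 40 lost the call, among them Col3a1, Loxl1, Dcn, Mmp9, Timp1, Itga8, Itgb5, Psap, Tgfb3, Inhba, Wnt5b, Vcam1, Per1, C3, C1s, Nqo1, Gclm, Zmat3, Psph, Sulf1, Foxs1, Hpse and Runx1. With the pairs as a random block 11 lost it: Loxl2, Cyr61, Klf15, Dll1, Inhba, Wnt5b, Il6, Psmb9, AL591145.1, Dusp27 and Foxs1.

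Many genes differed between the 2 kinds of flat culture. The study pooled all flat cultures for its own comparison, reporting that the cell source added as much variance as passage number did. Passage number was not examined here, so its part in these differences was not tested. The reaggregates are common to both comparisons with flat cultures, so the counts below are not independent, and the difference between the comparisons is the difference between the 2 kinds of flat culture. In a fit of all 10 libraries with 3 groups, 16933 genes were tested, and the reaggregates were higher than flat cultures 2 and 4 for 2539 genes (15%) and lower for 1778 (10.5%), and against flat cultures 1 and 3 in the same fit for 703 (4.15%) and 1096 (6.47%). Flat cultures 1 and 3 were higher than flat cultures 2 and 4 for 1622 genes (9.58%) and lower for 726 (4.29%), 1148 and 1112 after quantile normalization. The total of 2348 was 1491 without flat culture 2. Of the 661 genes higher in reaggregates than in flat cultures 1 and 3, 458 were called higher and 10 lower than in flat cultures 2 and 4, and of the 1080 lower genes, 531 were called lower and 43 higher.

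Side by side, the Mitosis list gave 34 lower against flat cultures 1 and 3 (median −2.72) and 29 lower against flat cultures 2 and 4 (median −1.62). The shares over all genes differ between the comparisons, at 15% higher and 10.5% lower against flat cultures 2 and 4. DNA replication gave 32 and 16 of 33 lower and cholesterol synthesis 17 and 7 of 22 lower. Lysosomal genes gave 16 of 34 higher, and then 7 higher and 1 lower. Collagens gave 8 of 24 higher and 1 lower in the fit with 3 groups, and then 14 higher and 2 lower. Interferon response and MHC class I genes gave 0 (by limma) of 29 higher and 1 lower, and then 15 higher and 2 lower, and complement genes gave 2 and 7 of 8 higher. Contractile genes gave 0 calls by limma of 18 against flat cultures 1 and 3, and 2 higher and 9 lower against flat cultures 2 and 4. Markers of other cell types moved with this difference. Smooth muscle and pericyte markers summed to 2805 and 2822 RPM in flat cultures 2 and 4, most from Acta2 (2050 and 1790), and 4 of the 5 tested were lower in reaggregates. Adipocyte markers summed to 835 and 1010 RPM, most from Fabp4 (435 and 711) and Pparg (395 and 295), and 2 of the 3 tested were lower. In the same cultures stromal markers summed to 8699 and 6245 RPM, most from Cxcl12 (4560 and 3990). Osteoblast markers summed to 50.9 and 42.6 RPM, blood markers to 8.20 and 10.6 and endothelial markers to 0.723 and 0.243. Epithelial markers summed to 0.239 and 0.122 RPM, and Ptprc, Cd3e, Adgre1, Epcam and Krt18 were at 0. The part of these markers in the differences from flat cultures 2 and 4 was not tested. Aurka was at 45.9 and 50.8 RPM in flat cultures 2 and 4, between the reaggregates and flat cultures 1 and 3. Bmper was at 13.2 and 9.60 RPM there, near its level in flat cultures 1 and 3, and the reaggregates were higher by a log2 fold change of 2.58. For some genes the direction turned with the flat culture used. Mgp, the calcification inhibitor matrix Gla protein, was at 143 to 243 RPM in the reaggregates (median 186), 38.9 and 40.1 in flat cultures 1 and 3 and 410 and 551 in flat cultures 2 and 4. The reaggregates lay between the 2 kinds of flat culture, with log2 fold changes of 2.22 and −1.35. Sulf1, a heparan sulphatase gene, had 1.38, which was not called against flat culture 3 alone (0.77), and −1.80, and Foxs1, a forkhead gene of perivascular cells, had 1.32, likewise (1.13), and −2.18. Against flat cultures 1 and 3 neither was called with consecutive reaggregates averaged, nor Foxs1 with them as a random block. Ly6a turned the other way, at 13.4 and 15.3 RPM in flat cultures 2 and 4, with −3.24 and 3.50. The adjoining genes Ly6c1 and Ly6c2, whose similar sequences can share reads, had −2.99 and 4.24, and −2.58 and 2.29, and were not called against flat culture 3 alone (−2.86 and −2.34). Hpse, the heparanase gene, had −2.41 and 2.40, without a call against flat culture 3 alone (−1.88).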

How the data were processed

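RNA sequencing of OP9 cells was used in 8 libraries for the comparison and in all 10 for the source of the flat cultures. The authors aligned 50-base single-end reads with TopHat 1.2.0 to NCBIM37 (mm9), summed them per Ensembl gene, dividing reads of ambiguous origin among genes, and deposited RPM, in which the reads of a gene are divided by the total of its library, rounded to 3 significant digits, for 26888 genes without a filter. The deposited table also holds the authors' own log2 fold change and adjusted p-value for reaggregates against flat cultures from DESeq, which were not used.

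Values were taken as log2(RPM + 0.5) and kept for genes above 0.5 RPM in at least 1 of the 8 libraries. Because the file holds no counts, groups were compared with limma 3.58.1 in R 4.3.3 (linear model, empirical Bayes with a mean-variance trend, Benjamini-Hochberg over all genes tested), and a gene was called if it changed 2-fold or more with an adjusted p up to 0.05. The 6 reaggregates, with and without IL-3, were 1 group and flat cultures 1 and 3 the other. Flat cultures 1 and 3 were tested against flat cultures 2 and 4 in 1 fit with 3 groups. The scripts were tested on simulated data. Tables were made with Python 3.11.15, pandas 2.3.3 and numpy 2.4.6 and plots with matplotlib 3.10.9. Gene coordinates are those of GENCODE on NCBIM37, and promoters those of RefSeq on GRCm38.p6.

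Depth was estimated at 7.35 to 9.43 M reads per library from the commonest value above 0, and 3 reads, between 0.318 and 0.408 RPM, were taken as the floor. Counting error alone is covered by this floor.

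The 147 named genes were found by rule: the 10 called genes with the highest and the 10 with the lowest log2 fold change among those without overlap and with at least 5 RPM in the higher group; in each of 25 lists and 7 marker lists up to 3 called members per direction and the member with the highest mean; up to 5 called genes per direction with the widest gap between flat cultures 1 and 3, and up to 5 called in opposite directions against the 2 kinds of flat culture; and 4 genes that the study names. A further 17 genes, Mmp2, Mmp14, Kitl, Mki67, Hexa, Lamp2, Mcoln1, Ctsa, Jag1, Mcm5, Id2, Id3, Insig1, Rfc5, Cdc20, Spc25 and Fabp4, were chosen after their values were seen, and their calls were examined in the same settings. C2, Cfb and the markers given at 0 were also chosen then. The members compared and the lists were chosen with earlier results of these data known. List members were matched by deposited name (632 symbols), gene ID (6) or RefSeq synonym (5), and Hmgcs1, Hes5, Nog, Flt3l, Pmaip1, C1qa, C1qc and Lep were not analysed here. Results of a few genes are not reported here. Lists are described by counts and medians and were not tested as sets.

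The alternatives tried were other pseudocounts and filters, quantile normalization, median-ratio scaling, a fit without the trend, leaving out each library, consecutive reaggregates averaged or as a random block (duplicateCorrelation with statmod 1.5.0), reaggregates with or without IL-3 only, all 10 libraries in 1 fit, the flat cultures alone, and the number in the label as a block.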

Additional observations from a re-analysis of the deposited data

Results flagged for a closer look

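The 56 differences below come from the 147 named genes and the fit with 3 groups. They were taken up because limma called flat cultures 1 and 3 different from flat cultures 2 and 4. Some of these genes were named because they were called in opposite directions against the 2 kinds of flat culture. For them such a difference follows largely from that choice. Over all 16933 genes tested, 9.58% were higher and 4.29% lower in flat cultures 1 and 3. Values are log2 fold changes of flat cultures 1 and 3 over flat cultures 2 and 4. Among genes of the matrix and its proteases, higher values in flat cultures 1 and 3 were found for Pcolce2 6.22, Hpse 4.81, Has2 4.78, Postn 4.28, Dcn 4.13, Col3a1 4.02, Fbn1 2.96, Cdh11 2.78, Mmp9 2.45, Plau 2.36, Col11a1 2.01 and Col1a2 1.55, and lower values for Mgp −3.57, Sulf1 −3.18, Col4a2 −2.0 and Mfap5 −1.41. Among genes of the cell cycle, higher values in flat cultures 1 and 3 were found for Top2a 1.56, Tk1 1.52, Rbl1 1.39, Hmmr 1.34 and Birc5 1.26. Among genes of signalling, growth factors and cytokines, higher values in flat cultures 1 and 3 were found for Wnt4 7.0, Igfbp5 4.72, Igf1 4.51, Sfrp1 3.51, Cxcl1 2.81, Notch3 2.08, Dkk3 1.92, Fstl1 1.55 and Il6 1.46, and lower values for Cxcl12 −3.89, Inhba −1.74 and Adm −1.73. Among genes of metabolism, lysosome, transport and stress, higher values in flat cultures 1 and 3 were found for Atf3 2.51, Scd2 2.12, Srebf2 1.72 and Slc7a11 1.40, and lower values for Slc40a1 −1.93, Ctsk −1.56 and Fas −1.32. Among genes of immunity and the cell surface, higher values in flat cultures 1 and 3 were found for Ly6c1 7.23, Ly6a 6.74, Slpi 5.18, Nlrp2 4.93, Ly6c2 4.87, C3 4.09, Slurp1 3.85, Mme 3.23, C1s 2.90, Lyz2 2.18 and Psmb9 1.67. Among genes of cell type and other functions, a higher value in flat cultures 1 and 3 was found for D0H4S114 2.76, and lower values for Dusp27 −5.05, Foxs1 −3.50, Acta2 −3.14 and Pparg −2.66. In each group of 6 reaggregates the distance of the outermost library from its neighbour was divided by the range of the group, for 147 named genes. The ratio was above Dixon's critical value for 1 gene, Klf15, which was at 0.106 RPM in reaggregate 6, about 1 read, and at 0 in the other 5. For 6 independent values chance flags about 1 in 20 groups, which would be 7.35 of 147. Consecutive reaggregates lay close together (consensus correlation 0.854), which gives the outermost library a near neighbour and can lower the ratio. The count of 1 can therefore not be set against 7.35, and nothing is drawn from it.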

How the results depend on the processing

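The 661 higher and 1080 lower genes moved most with the flat cultures and with how reaggregates were counted. Leaving out 1 library at a time gave 198 (without flat culture 1) to 1525 (without flat culture 3) higher and 563 to 1896 lower genes, and 1491 (without flat culture 2) to 2513 (without flat culture 1) genes between the 2 kinds of flat culture beside 2348. Averaging consecutive reaggregates gave 208 higher and 512 lower, taking them as a random block (consensus correlation 0.854) 521 and 715, reaggregates without IL-3 alone 222 and 509, and those with IL-3 alone 201 and 438. Without the filter 406 were higher and 846 lower of 24724 tested. Quantile normalization gave 855 and 892 and median-ratio scaling 794 and 950. The remaining pseudocounts, filters and fits, and the 4 flat cultures alone (1587), stayed within 1.5 times. With the label number as a block in reaggregates 1 and 3 and flat cultures 1 and 3 the counts were 1066 and 1017 of 16316 tested, from 2 pairs that share only a number. The correlation of matched deviations was 0.0393 about the mean of reaggregates 1 and 3, and −0.336 for number 1 and 0.283 for number 3 about the mean of 6. Of 147 named genes, calls were lost for 46 without flat culture 1, 45 with IL-3 reaggregates only, 40 with reaggregates averaged, 40 with those without IL-3 only, 24 without the filter, 5 after quantile normalization and 3 after median-ratio scaling, and 0 called genes changed direction in the settings run. The flat group holds 2 libraries, the stock of the reaggregates is not labelled, and whether consecutive reaggregates came from the same cells is not stated.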

Other observations

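Reaggregates with consecutive numbers resembled each other in called and in uncalled genes. Dcn, called higher than in flat cultures 1 and 3, was at 56.3 and 47.3 RPM in reaggregates 1 and 2. It was at 417 and 478 in reaggregates 3 and 4 and at 87.6 and 87.2 in reaggregates 5 and 6. The genes that follow were uncalled. Acta2 was at 189 and 191 RPM in reaggregates 1 and 2, at 404 and 378 in reaggregates 3 and 4 and at 63.8 and 72.1 in reaggregates 5 and 6. Cxcl12 was at 889 and 898, 2220 and 2300, and 546 and 573 RPM in the same order. Spp1 ran differently, at 2930 and 2760, 1370 and 1480, and 5130 and 5400 RPM. The median of the contractile list, as a log2 difference from the mean of the 8 libraries, was 0.07 and 0.19, 0.42 and 0.47, and −0.47 and −0.37. The labels do not say whether reaggregates with consecutive numbers were made from the same cells.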
